A study of Mus musculus with 8 samples.

Results

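The peaks described here are those of MBD5 and MBD6 CLIP-seq that lie on processed pseudogenes in mouse ES (mES) cells. A peak was a member if the position 15 nt inside its 5′ end lay, on the same strand, in an exon of a GENCODE vM21 gene of type processed pseudogene or transcribed processed pseudogene (build mm10) and in no exon of a protein-coding transcript. This held for 2256 of the 29555 peaks of the 4 CLIP libraries. In Flag-MBD5 library 1, 452 of 5362 peaks were members (8.43%, 95% Wilson interval 7.72 to 9.2%), and in library 2, 427 of 5388 (7.93%, 7.23 to 8.68%). In Flag-MBD6 library 1, 669 of 9218 peaks were members (7.26%, 6.75 to 7.81%), and in library 2, 708 of 9587 (7.39%, 6.88 to 7.93%). The shares were thus similar in the 4 libraries, although the Flag-MBD6 libraries held more peaks. The members merged into 888 sites on 735 pseudogenes, out of 10237 annotated processed pseudogenes, so that 7.18% of all such genes had a peak in any library.

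CLIP-seq crosslinks a protein to the RNA it touches with ultraviolet light, pulls the protein down and sequences the RNA fragments that come with it. Here the human MBD5 or MBD6 coding sequence with a 3×Flag tag was stably overexpressed in wild-type mES cells under hygromycin selection, so that the proteins measured were tagged, of human sequence and above their natural amount. All lines were grown in serum with LIF, CHIR99021 and PD0325901 and were passaged off their feeder cells. Each protein had 2 CLIP libraries and 2 inputs, and no values of the inputs on their own were used here. The labels name the Flag antibody for the CLIP samples in one field and an MBD6 antibody in the extraction protocol, whereas the study's methods give Flag. Of 12 genes that mark mES cells, 5, 6, 8 and 9 had a peak in the 4 libraries, in the order Flag-MBD5 1 and 2 and Flag-MBD6 1 and 2, and 0 of 8 fibroblast genes had one in any library.

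A processed pseudogene is a copy of an mRNA that was reverse-transcribed and inserted back into the genome. It has no introns, usually no promoter of its own, and carries the exons of its parent gene joined end to end. Genes that are strongly expressed in the germ line, such as those for ribosomal proteins, have left many such copies, and young copies are still nearly identical to the parent mRNA. The authors aligned the reads to the genome without splicing and allowed up to 3 mismatches. Only the places with the fewest mismatches counted for a read. Reads with more than 10 such places were discarded, and 1 place was reported for each remaining read. A read from the parent mRNA that crosses an exon junction therefore has no unbroken place in the parent gene, and a read that fits the parent and the copy equally well can be placed at either. Where a copy matches the parent mRNA closely, the peak lists alone cannot tell RNA transcribed from the pseudogene apart from RNA of its parent. The annotation's type transcribed, which rests on other evidence, covered 296 of the 10237 pseudogenes, and 32 of these had a peak.

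The sequences below are the 30-nt windows that start at the 5′ end of the peak with the most summit reads at the strongest sites. Sites were ranked by fold enrichment in each library. The 10 with the best average rank among the 290 sites with a peak in all 4 libraries are given here and in the next paragraph, and they are shown because they make plain what such a window looks like beside the parent mRNA. All were read from the GENCODE transcript sequences, build mm10. The parent gene is the protein-coding gene with the best alignment to the pseudogene. Each line gives the pseudogene window, with the letters that differ from the parent in capitals, or the parent mRNA window, with the letters after an exon junction in capitals.
Gm9892, chr8:52197022-52197051, minus strand: cggggacgagatgatttttgatcctactat
Eif2s2, chr2, minus strand, exons joined after base 10: cggggacgagATGATTTTTGATCCTACTAT
Gm9531, chr9:81678306-81678335, plus strand: acctggttcccgacatggatgatgaagaag
Set, chr2, plus strand, exons joined after base 5: acctgGTTCCCGACATGGATGATGAAGAAG
Rps24-ps3, chrX:79195305-79195334, plus strand: cctaaacacagactCgcaagacatggcctt
Rps24, chr14, plus strand, exons joined after base 21: cctaaacacagactggcaagaCATGGCCTT
Gm4204, chr1:135232131-135232160, plus strand: acaagatggccgacattgacaacaaagaaT
Nap1l1, chr10, plus strand, exons joined after base 22: acaagatggccgacattgacaaCAAAGAAC
Gm12346, chr11:77294019-77294048, plus strand: acacaggtgaaccaatgggtcgtggaacaa
Hsp90aa1, chr12, minus strand, exons joined after base 6: acacagGTGAACCAATGGGTCGTGGAACAA
In these 5 sites the parent mRNA crossed an exon junction within the window, and the windows of Gm9892, Gm9531 and Gm12346 were identical to the spliced parent mRNA. The window of Gm9531 was found in 2 annotated genes, the pseudogene and Set, and that of Rps24-ps3 in no other annotated gene.

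The other strongest sites had windows that lay in 1 exon of the parent and were identical to it over all 30 nt.
Gm14681 and Npm1, chrX:66778816-66778845, minus strand: taaaacttgatgaagatgatgaggacgatg
Gm4204 and Nap1l1, chr1:135232519-135232548, plus strand: agaagaagaatgcgagtggaaaccagatga
Gm5835 and Rpl4, chr1:143094105-143094134, minus strand: ttgaaggttacaagaagaccaaggaggctg
Rps24-ps2 and Rps24, chr3:3792182-3792211, plus strand: ctttatgagaagaaaaagacctcccgaaaa
Gm12346 and Hsp90aa1, chr11:77295191-77295220, plus strand: accaaggaccaggttgctaactccgccttt
Sequence alone does not place such a window at the pseudogene or at the parent. The window of Gm14681 was found in 4 annotated genes, and those of Gm5835, Rps24-ps2 and Gm12346 in 3 each.

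Another kind of window was found in no other annotated transcript and lay in 1 exon of the parent, which it missed by 1 to 3 letters. Such windows made up 61 of the 856 sites with a matched window (7.13%), from 56 parent genes. Of these, 47 windows had 1 mismatch, 9 had 2 and 5 had 3. Shown are 5 of the 6 with the highest mean fold enrichment among the 21 found in all 4 libraries, chosen after their values were seen.
Gm8276, chr3:59432030-59432059, plus strand: tttacatcaagaacttCggagaagacatgg
Pabpc1, chr15:36602882-36602911, minus strand: tttacatcaagaactttggagaagacatgg
Gm6085, chr1:4689123-4689152, minus strand: ctcttcttcgtggacacTggattcaagaga
Nop53, chr7:15945294-15945323, minus strand: ctcttcttcgtggacacaggattcaagaga
Gm12430, chr4:47453956-47453985, plus strand: atcgtggaacctgaagtagtgggagagagT
Mfap1a, chr2:121502601-121502630, minus strand: atcgtggaacctgaagtagtgggagagagc
Gm44521, chr7:41467701-41467730, minus strand: taactGgtggaGccaagaaagatgcaaaaa
Mki67, chr7:135693091-135693120, minus strand: taactcgtggaaccaagaaagatgcaaaaa
Gm7363, chr7:3983862-3983891, minus strand: aagGaaaagacctcccgaaaacagTgaaag
Rps24, chr14:24493398-24493427, plus strand: aagaaaaagacctcccgaaaacagcgaaag
Of the 61 sites, 46 had a peak at the aligned position of the parent in any library and 28 had one in all 4. The alignment allowed up to 3 mismatches and placed a read where it had the fewest. The peak files hold no reads, so which letter the reads carried at the capital positions was not measured here.

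Fold enrichment is the deposited ratio of reads at a peak's summit to the background rate of the peak calling, with 1 added to both. The number of reads at the summit was solved from this ratio and the deposited p-value. The median background of members was 0.393, 0.420, 0.611 and 0.690 reads in the 4 libraries, so the ratio also moves with the depth of a library. The highest site was on Gm9892, a copy of Eif2s2, which encodes a subunit of the initiation factor that carries the initiator tRNA (chr8:52196058-52197053, minus strand). It reached a fold enrichment of 98.5 and 109 with Flag-MBD5 and of 104 and 105 with Flag-MBD6, on 144, 154, 204 and 224 summit reads. It ranked at the top in every library, and the parent position had a peak in 0 of 4. Gm14681, a copy of the nucleolar histone chaperone gene Npm1, reached 69.6 and 59.8 with Flag-MBD5 and 66.8 and 91.0 with Flag-MBD6, and the same stretch of Npm1 had a peak in 4 of 4 libraries. Gm9531, a copy of Set, which encodes an acidic histone chaperone and phosphatase inhibitor, gave 47.7 and 57.9 with Flag-MBD5 and 78.8 and 87.0 with Flag-MBD6. Rps24-ps3, a copy of a small ribosomal subunit gene, gave 64.9, 50.1, 80.7 and 75.1 in the same order, with the parent position at 0 of 4. The site of Gm4204 over a junction, a copy of the histone chaperone gene Nap1l1, gave 49.9, 45.8, 80.7 and 53.4, and its other site gave 55.3, 42.0, 89.2 and 78.2. At the sites of Gm9531 and Rps24-ps3 and both Gm4204 sites the Flag-MBD6 values in fold enrichment lay above the Flag-MBD5 values. In RPM, the summit reads scaled by the estimated reads of each library, the order turned without overlap. Gm9531 had 178 and 150 RPM with Flag-MBD5 against 128 and 131 with Flag-MBD6, and the Gm4204 sites had 186 and 168 against 131 and 126 and 232 and 190 against 157 and 150. Rps24-ps3 had 188 and 184 against 131 and 113.

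Gm5835, a copy of the large ribosomal subunit gene Rpl4, gave 56.6 and 48.9 with Flag-MBD5 and 43.0 and 84.8 with Flag-MBD6, so that the groups overlapped. Rps24-ps2 gave 45.6, 44.1, 57.7 and 48.7 in the same order, with both Flag-MBD6 values higher. In RPM it had 132 and 124 with Flag-MBD5 against 93.5 and 90.8 with Flag-MBD6, so the order turned here too. Gm12346, a copy of Hsp90aa1, which encodes the inducible cytosolic HSP90 chaperone, was the only pseudogene beside Gm4204 with 2 of the 10 strongest sites. Its site over a junction gave 82.4 and 66.4 with Flag-MBD5 against 56.7 and 32.6 with Flag-MBD6, with no overlap between the groups, and its other site gave 39.1 and 46.2 against 55.3 and 44.4. Across all members the median fold enrichment was 10.5, 9.91, 10.5 and 10.6 in the 4 libraries, against 10.1, 10.3, 11.2 and 11.2 for peaks on protein-coding exons. The median member rested on 16, 16, 18 and 20 summit reads, so most single sites were far below the 10 named above. The peaks were also alike in width, with medians of 167, 164, 170 and 171 bp against 163, 165, 166 and 167 bp on coding exons.

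The libraries of each protein were compared first. At the 78 sites that were strong in both Flag-MBD6 libraries (at least 40 summit reads in each) and had a peak in both Flag-MBD5 libraries, the Flag-MBD5 libraries differed by a chi-square of 0.680 per degree of freedom, less than sampling noise. The reverse selection gave 0.408 over 32 sites for the Flag-MBD6 libraries. Between a Flag-MBD5 and a Flag-MBD6 library the measure was 4.44 to 6.73 over 58 sites, chosen by another rule (a mean of at least 40 summit reads over all libraries). It takes in any general shift between the proteins on the estimated totals, and not only differences of single sites. Because its libraries differed by less than sampling noise, each protein was counted as 1 sample. Both library values are given, and no test was run between the proteins. By a peak's overlap with any peak of the other library, 73.0 and 76.3% of the Flag-MBD5 members and 81.6 and 76.4% of the Flag-MBD6 members were found again, close to the 74.9, 73.9, 82.1 and 78.5% of peaks on coding exons.

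Most windows matched a coding mRNA exactly. Of the members with a 30-nt window inside the pseudogene transcript, 345 of 435 in Flag-MBD5 library 1 were identical to a protein-coding transcript (79.3%, 75.3 to 82.9%) and 340 of 413 in library 2 (82.3%, 78.4 to 85.7%). The Flag-MBD6 libraries gave 502 of 642 (78.2%, 74.8 to 81.2%) and 522 of 685 (76.2%, 72.9 to 79.2%). Over every possible window position of the same pseudogenes, each counted once and in all parts of the copy, 45.1% of 658538 were identical to a coding transcript. The 2 shares weight copies and parts of the mRNA differently. Whether peaks lay on better kept stretches within a copy was not tested. At most 10 windows of a library had no coding match within 3 mismatches. The matched stretch lay in the coding sequence of the parent for 99.6 to 99.8% of the windows. How much of the annotated copies matches coding sequence at all was not measured, so this share alone shows no preference for it. The window was also found in another processed pseudogene for 50.8, 52.5, 46.4 and 46.9% of the members with a window, and in no other annotated gene for 18.6, 15.3, 19.2 and 20.7%.

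About 1 window in 3 spanned an exon junction of the parent mRNA. The counts were 143 of 432 matched windows (33.1%, 28.8 to 37.7%) and 129 of 410 (31.5%, 27.2 to 36.1%) for Flag-MBD5, and 212 of 634 (33.4%, 29.9 to 37.2%) and 229 of 675 (33.9%, 30.5 to 37.6%) for Flag-MBD6. Of all 581704 window positions in the coding sequences of the 430 matched parent transcripts, 18.3% spanned a junction. The positions count each parent transcript once, whereas windows are counted by member and judged over all equally good matches. The shares thus weight parents differently, and the part of this in the gap was not tested. Peaks on protein-coding exons spanned one in 0.351, 0.396, 0.519 and 0.499% of windows, a share that the unspliced alignment keeps low by construction. The junction share differed with the match. Among windows identical to a coding transcript it was 24.1, 25.3, 25.7 and 27.2%, and among windows with 1 to 3 mismatches it was 69.0, 61.4, 62.9 and 56.9%. Windows that were identical, over a junction, or both made up 93.1, 92.7, 91.1 and 88.9% of the windows. The share depends on the window length, with 19.6% for Flag-MBD5 and 22.0% for Flag-MBD6 in 20-nt windows against 12.0% of positions, and 47.4% and 48.1% in 50-nt windows against 30.7%.

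**Figure D1:**
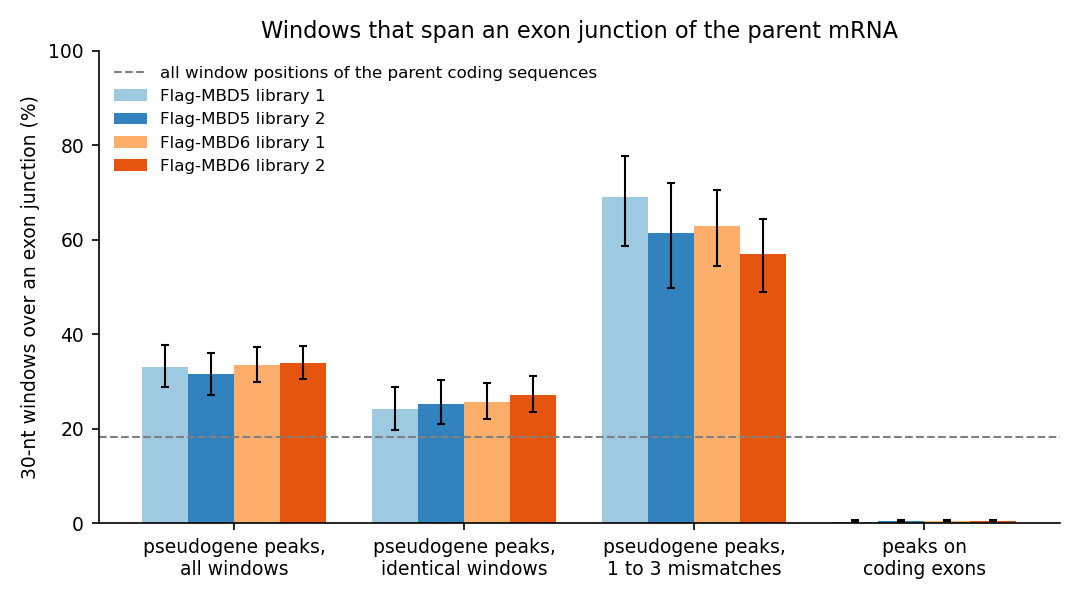
Share of 30-nt windows (%) that span an exon junction of the parent mRNA, for pseudogene peaks by their match to the coding mRNA and for peaks on coding exons. Bars are single libraries, and error bars are 95% Wilson intervals for counting error. The dashed line is the 18.3% of all coding window positions of the parents, with each parent transcript counted once. Windows with 1 to 3 mismatches stand at 56.9 to 69.0%, and peaks on coding exons near 0.

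The more a pseudogene resembled its parent, the more often it had a peak. A parent was found for 10025 of the 10237 pseudogenes, and it was the gene in the name for 103 of the 114 pseudogenes with a peak that are named after a parent. The 735 pseudogenes with a peak had a median identity of 96.9% to the parent mRNA (quartiles 93.2 and 98.9%), and the 9290 without a peak had 87.7% (79.6 and 93.6%). Below 80% identity, 6 of 2389 had a peak (0.251%). The share was 1.22% between 80 and 85%, 3.77% between 85 and 90%, 7.55% between 90 and 95%, 15.9% between 95 and 98%, and 27.4% (277 of 1011) at 98% or more. Identity was that of the best alignment and not of the whole copy.

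**Figure D2:**
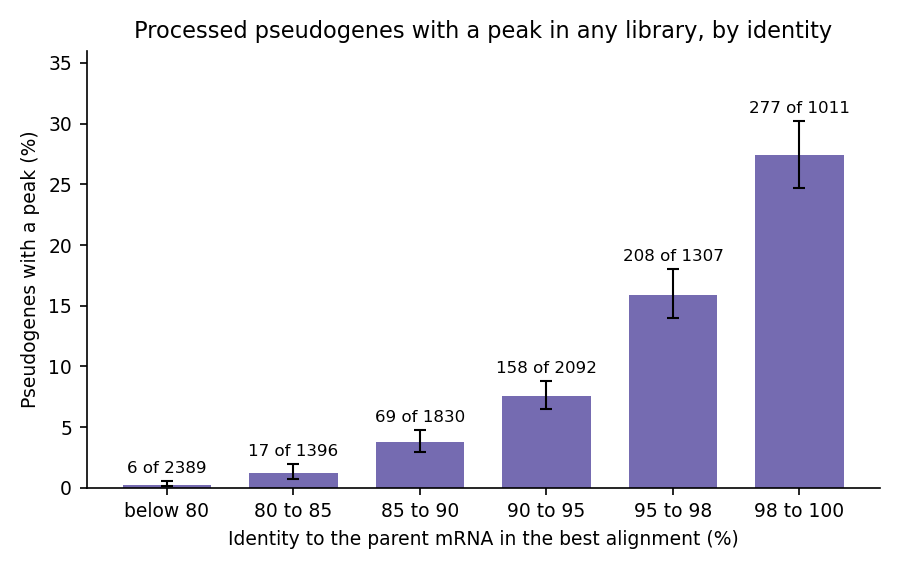
Share of processed pseudogenes with a peak in any library (%) by identity to the parent mRNA in the best alignment (%). Error bars are 95% Wilson intervals for counting error and the numbers are genes. The share rises from 0.251% below 80% identity to 27.4% at 98% or more.

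The parents were 430 genes, and ribosomal proteins were the largest named group. Large subunit genes were the parents of 20.1 and 20.4% of the Flag-MBD5 members and 17.0 and 16.9% of the Flag-MBD6 members, and small subunit genes of 10.4, 9.37, 8.07 and 8.76%. Measured against the number of annotated copies, however, ribosomal protein pseudogenes stood close to the 7.18% of all processed pseudogenes. A peak was found on 135 of 1669 copies of large subunit genes (8.09%, 6.87 to 9.50%) and on 66 of 874 copies of small subunit genes (7.55%, 5.98 to 9.49%). Beside Gm5835, the highest large subunit site was on Gm15772, a copy of Rpl26, with fold enrichments of 38.5, 24.2, 44.7 and 52.7.

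The HSP90 and HSP70 chaperones, which help other proteins to fold, had the highest share of copies with a peak, 23 of 62 (37.1%, 26.2 to 49.5%). Hspa8, the constitutive HSP70, had peaks on 10 of its 18 copies, Hsp90ab1 on 8 of 27 and Hsp90aa1 on 4 of 14. Gm5844, a copy of Hsp90aa1, gave fold enrichments of 36.9, 57.8, 37.6 and 36.9. Nucleolar acidic proteins and histone chaperones followed with 32 of 103 copies (31.1%, 22.9 to 40.5%). In this group Set had peaks on 9 of 22 copies, Ptma, the gene for the acidic nuclear protein prothymosin alpha, on 8 of 21 and Npm1 on 8 of 25. At 95% identity or more, 15 of 16 copies of this group and 8 of 8 of the chaperone group had a peak, against 485 of 2318 copies of all families (20.9%). Below 95% identity the shares were 19.5% in this group and 27.8% in the chaperone group, against 3.24% of all families, so both close and distant copies of these groups had the greater share.

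Translation elongation factors had a peak on 13 of 80 copies (16.2%, 9.75 to 25.8%). Their highest sites were on AC124512.1, with 23.5, 28.4, 16.6 and 17.2, and on Gm6767, with 10.9, 18.3, 9.84 and 14.4, both copies of Eef1a1, which brings aminoacyl-tRNA to the ribosome. RNA helicases and splicing factors had 23 of 187 copies (12.3%), translation initiation factors 16 of 131 (12.2%) and heterogeneous nuclear ribonucleoproteins, which bind nascent mRNA, 17 of 143 (11.9%). Gm7964, a copy of Hnrnpk, gave 25, 28.0, 37.3 and 36.8, and Gm8276, the copy of the poly(A)-binding protein gene Pabpc1 shown above, gave 21.1, 27.1, 36 and 40.2. Among the helicases, Gm12183, a copy of Ddx5, gave 8.22 and 9.20 with Flag-MBD5 and 24.3 and 25.8 with Flag-MBD6, so both Flag-MBD6 values were higher. In RPM the gap was smaller, with 29.2 and 28.0 for Flag-MBD5 against 36.6 and 43.2 for Flag-MBD6. Gm16433, a copy of Ddx18, gave 13.3, 11.1, 19.7 and 20.7. Gm4900, a copy of the splicing regulator gene Ptbp1, gave 19.9, 17.2, 11.6 and 17.6.

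In the families of this paragraph the share was below the 7.18% of all processed pseudogenes. Each of their 95% Wilson intervals included 7.18%, such as 3.55 to 9.08% for HMG proteins, so these shares could not be told from it. Ubiquitin and proteasome genes had 15 of 220 copies with a peak (6.82%), led by Gm1821, a copy of the polyubiquitin gene Ubb, with 19.9, 19.5, 30.3 and 31.6, and AC110212.1, a copy of Psmc1, with 13.1, 16, 26.7 and 23.7. Actin and tubulin genes and their binding proteins had 10 of 163 (6.13%), and Gm3788, a copy of the actin-sequestering Tmsb10, gave 28.7, 30.3, 39.4 and 42.1. Another copy of Tmsb10, AC113528.1, gave 19.3, 16.1, 14.6 and 13.4. Histone genes had 6 of 100 (6%), with Gm12957 at 10.8, 13.0, 13.7 and 12.4 and Gm8203 at 10.6, 9.29, 14.7 and 13.5. HMG chromatin proteins had 16 of 280 (5.71%), and Hmgb1-ps7, a copy of Hmgb1, gave 24.6, 22.1, 19.2 and 22.5. Cell cycle and replication genes had 4 of 86 (4.65%), with Pcna-ps2, a copy of the replication clamp gene Pcna, at 15.5, 14.1, 11.2 and 17.9 and Gm15654, a copy of Mcm6, at 9.24, 9.91, 11.2 and 13.6. Nuclear transport genes had 3 of 45 and chaperonins 2 of 53.

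Glycolysis and energy metabolism had the lowest share, 23 of 789 copies (2.92%, 1.95 to 4.34%). Its leading sites were on Gm6992, a copy of the pyruvate kinase gene Pkm, with 22.1, 23.8, 16.6 and 22.0, and on Uqcrh-ps2 with 18.5, 22.9, 19.2 and 23.7. Gapdh, named after its values were seen, has 401 annotated copies, of which 1 had a peak, in Flag-MBD6 library 2 only. Reads that fitted more than 10 places equally well were discarded upstream, and the part of that step in the low share was not tested. The remaining 5040 pseudogenes of other parents had a peak in 6.57%. Their highest sites were on Gm6563, a copy of Sarnp, with 28.5, 29.0, 42.2 and 51.5, and Morf4l1-ps1, a copy of the chromatin gene Morf4l1, with 27.8, 42.7, 33.8 and 39.0, both over a junction.

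**Figure D3:**
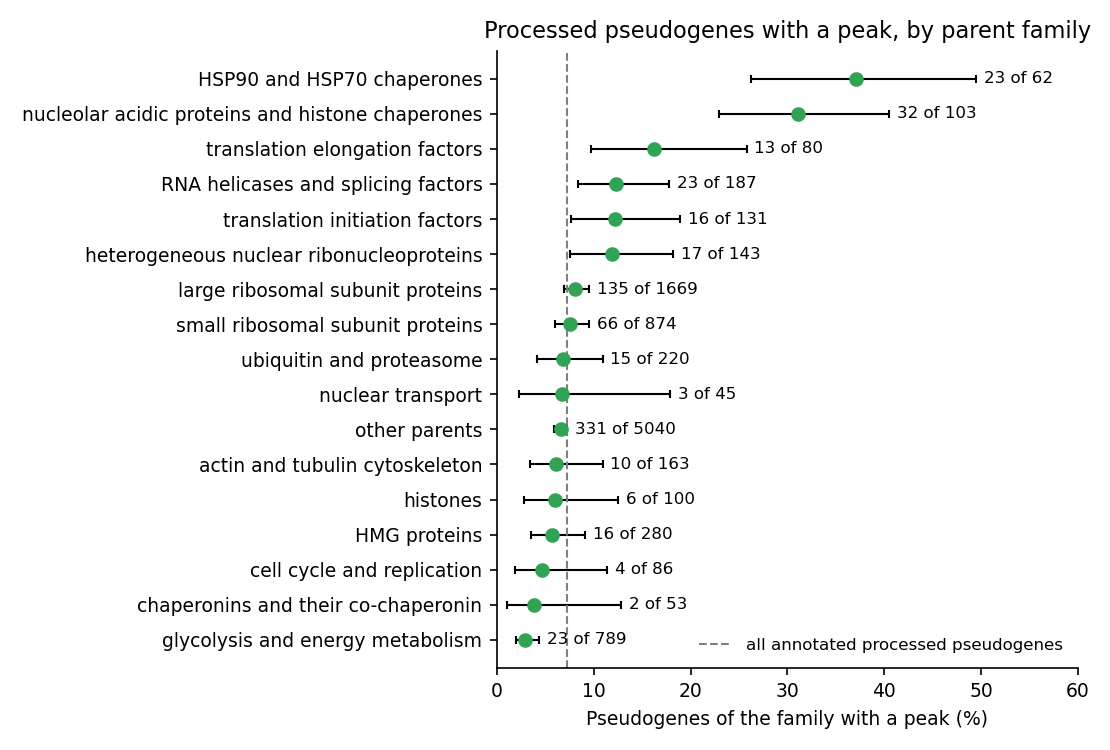
Share of the annotated processed pseudogenes of each parent family that had a peak in any library (%). Points are shares, bars are 95% Wilson intervals for counting error, and the dashed line is the 7.18% of all processed pseudogenes. The HSP90 and HSP70 group (37.1%) and the nucleolar acidic group (31.1%) lie to the right of the other families, and glycolysis (2.92%) lies lowest.

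Copies of the same parent often had peaks at nearby places. Sites were grouped along the parent where neighbours lay within 30 nt. The 856 matched sites fell on 671 such positions of parent mRNAs, and 113 of these positions were hit on 2 or more pseudogenes, which took in 298 sites (34.8%). The position with most copies was in Rpl23a, where 12 pseudogenes had a site, 11 of them with a window identical to a coding transcript. Rpl32 and Set each had a position shared by 7 pseudogenes, Rpl12 and Rps24 by 6, and Rps6 and Smarca5 by 5. Copies that share a window are not independent sites, since a read that fits them all is reported at 1 of them. At the shared positions in Rpl23a, Rpl32, Set, Rpl12 and Rps24 the parent gene itself had a peak in 4 of 4 libraries, at that in Rps6 in 3 and at that in Smarca5 in 1.

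Among members with a matched window, the aligned position of the parent gene held a peak of the same library for 43.8% (39.1 to 48.5%) and 46.3% (41.6 to 51.2%) with Flag-MBD5, and for 53.2% (49.3 to 57.0%) and 51.9% (48.1 to 55.6%) with Flag-MBD6. For windows that lay in 1 exon the shares were 53.6, 56.2, 60.9 and 61.9%. For windows over a junction, which have no unbroken place in the parent gene, they were 23.8, 24.8, 37.7 and 32.3%. A peak anywhere in the exons of the parent gene was found for 80.8, 82.2, 86.6 and 86.7%. Counted over positions, 339 of 671 (50.5%) had a parent peak in any library and 147 had one in all 4.

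In base composition and cutting the members were like the peaks on mRNAs. Adenine made up 37.3, 37.3, 38.4 and 38.1% of the window letters, against 37.3, 37.8, 38.7 and 38.5% on coding exons. Guanine stood just before the 5′ end in 79.2, 77.4, 73.6 and 72.2%, against 83.3, 82.8, 74.0 and 73.2% on coding exons, where RNase T1, the nuclease used on the libraries, cleaves after G. In the frame of the parent, codons for the acidic residues made up 18.5, 19.7, 21.1 and 20.1% of the window codons, against 14.1% of all codons of the parents. Codons for lysine and arginine made up 23.1, 23.0, 23.1 and 23.6%, against 14.7%. The shares of all codons count each parent transcript once, whereas window codons are counted by member. The part of the mix of parent families in these gaps was not tested. At the 10 strongest sites, the 9 or 10 whole codons of a window held between 0 (Rps24-ps3) and 7 (Gm14681) acidic ones, and 11.8, 14.4, 15.9 and 15.1% of all such windows held 4 or more.

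The proteins shared most Flag-MBD5 sites. A reproducible region was one found in both libraries of a protein, and there were 321 on 286 pseudogenes for Flag-MBD5 and 529 on 463 pseudogenes for Flag-MBD6. Of the Flag-MBD5 regions, 300 overlapped a Flag-MBD6 region (93.5%, 90.2 to 95.7%), against 90.0% of all Flag-MBD5 regions. Of the Flag-MBD6 regions, 296 overlapped a Flag-MBD5 region (56.0%, 51.7 to 60.1%), against 47.7% of all Flag-MBD6 regions and 46.0% of those on coding exons. The Flag-MBD6 libraries held an estimated 983918 and 1111742 reads in the peak calling, against 478790 and 500143 for Flag-MBD5. When the same number of peaks was taken from each library by deposited q, the shares were 76.2% for Flag-MBD5 and 78.5% for Flag-MBD6, so the order of the proteins in this measure turned under that choice. Over all libraries, 483 sites had a peak of both proteins, 61 of Flag-MBD5 only and 344 of Flag-MBD6 only.

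At the 290 sites with a peak in all 4 libraries, levels were set side by side in RPM. The median difference, Flag-MBD6 minus Flag-MBD5, was -0.43 on the log2 scale (quartiles -0.74 and -0.15), against -0.24 (-0.62 and 0.14) at 2817 sites on coding exons, and the scale rests on the estimated totals. A site also had to be called in all 4 libraries, and the same few reads are a higher RPM in the less deep Flag-MBD5 libraries. Sites called with Flag-MBD6 only are left out. This selection favours negative differences, on coding exons too, and its part was not tested. Both Flag-MBD6 libraries were above both Flag-MBD5 libraries at 15 of the 290 sites (5.17%), against 19.8% of the coding sites. The reverse held at 185 sites (63.8%), against 50.9% of the coding sites. The following sites at the ends of the range were named after their values were seen. Gm5844, at another site than above, had 140 and 122 RPM with Flag-MBD5 and 39.6 and 40.5 with Flag-MBD6, a difference of -1.71. At the other end, Gm12430, the copy of the spliceosome gene Mfap1a shown above, had 27.2 and 28.0 with Flag-MBD5 and 54.9 and 54.9 with Flag-MBD6, a difference of 0.99. By family, the median difference was -0.94 at 11 sites of elongation factors, -0.68 at 58 of large subunit genes, -0.47 at 32 of small subunit genes, -0.56 at 22 of HSP90 and HSP70 genes and -0.23 at 23 of nucleolar acidic proteins. At the 3 sites of helicases and splicing factors it was 0.12.

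**Figure D4:**
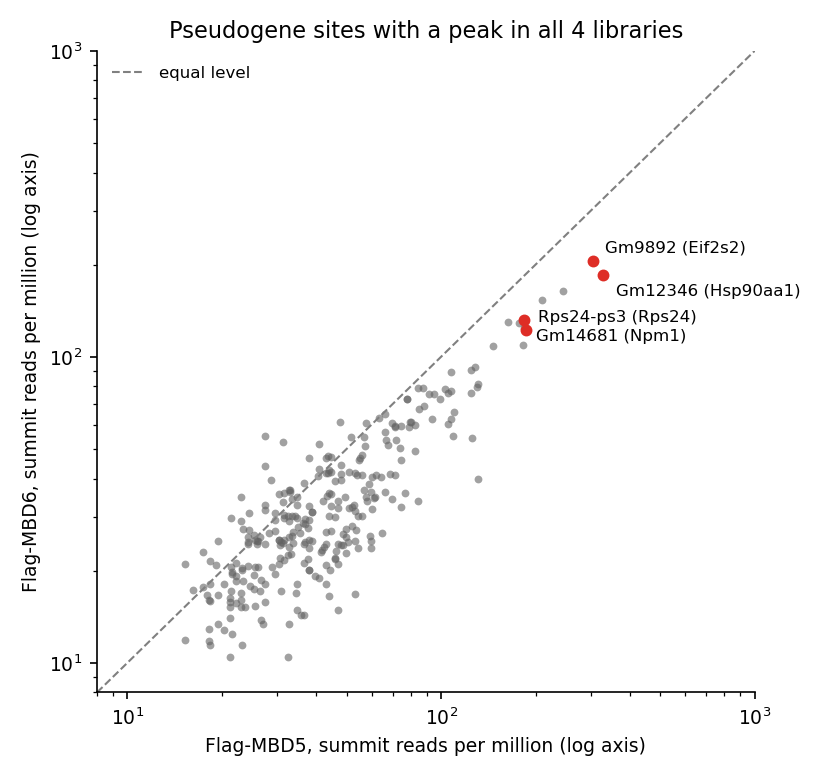
Summit level (RPM of the estimated reads) at the 290 pseudogene sites with a peak in all 4 libraries, as the geometric mean of the 2 Flag-MBD5 libraries (x axis, log) and of the 2 Flag-MBD6 libraries (y axis, log). The dashed line marks equal level, and 4 of the highest sites are named. Most points lie below the line, with a median log2 difference of -0.43.

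Regions of one protein without any peak of the other were 7 for Flag-MBD5 (2.18% of 321) and 122 for Flag-MBD6 (23.1% of 529), against 3.83% and 33.3% of all regions of these proteins. A peak list gives no reads below its threshold, so such a site is without a peak and not without reads. The 5 Flag-MBD5 regions with most reads had 9 to 18 summit reads per library. They were on Hist1h2al, annotated as a processed pseudogene and closest to Hist2h2aa1, with fold enrichments of 8.22 and 7.09, on Gm6108, a copy of H2afz, with 6.65 and 9.15, and on Gm4815, Rpl36-ps2 and Gm4900, copies of Cnn3, Rpl36 and Ptbp1, with 5.60 to 7.90. The window of Hist1h2al stood in 22 annotated genes. Among the 5 Flag-MBD6 regions with most reads, whose libraries were deeper, Gm8258, a copy of Txlng, had 2, with fold enrichments of 20.7 and 17.0 on 40 and 44 reads and of 20.5 and 17.7 on 32 and 29 reads. Gm13416, a copy of the ubiquitin ligase gene Wwp1, gave 22.3 and 20.7, Gm43555, a copy of Dgcr8, whose protein acts in microRNA processing, gave 13.8 and 11.7, and Gm13239, a copy of Hmgb1, gave 22.3 and 13.4.

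Transcribed processed pseudogenes made up 23, 24, 30 and 40 of the members of the libraries. Those with a site in all 4 libraries were 12 genes with 17 sites. The strongest were Gm9531 (Set), Gm12346 (Hsp90aa1) and Gm1821 (Ubb), given above. Gm12346 had 4 such sites, of which the other two gave 14.1, 14.4, 16.9 and 16, and 21.4, 9.0, 7.52 and 8.57. A second site of Gm9531 gave 13.3, 7.37, 20.7 and 36.1. Gm8325, a copy of Ube2v1, gave 16.2 to 20.1, and Gm5297, a copy of Pa2g4, gave 12.2, 9.86, 26.9 and 17.0 at one site and 8.96, 12.7, 13.6 and 24.5 at the other. Gm15500, Gm6047, Rps4l, Gm10275, Rpl37rt and Rps26-ps1, copies of Rpl5, Jpt2, Rps4x, Rpl12, Rpl37 and Rps26, lay between 5.66 and 16.2. Rps4l was the most diverged of these, at 79.7% identity to Rps4x, and gave 10.4, 14, 9.70 and 11. The remaining gene of the 12, Smarca5-ps, is given below.

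The stretch of chromosome 4 between the outermost copies of Smarca5, from 145464204 to 147738426 and chosen after its values were seen, held 34 sites (3.83% of 888) on 18 of its 45 annotated processed pseudogenes. It gave 7 and 8 members with Flag-MBD5 (1.55 and 1.87%) and 23 and 29 with Flag-MBD6 (3.44 and 4.10%), so both Flag-MBD6 shares were higher. Of the 34 sites, 20 were on copies of Smarca5, which encodes a chromatin remodelling ATPase, 5 each on copies of Hmgb1 and Cdv3, 3 on copies of Hmgb2 and 1 on a copy of Rpl28. No site had a peak of Flag-MBD5 only, 23 had peaks of Flag-MBD6 only and 11 of both, against 61, 344 and 483 of all 888 sites. Copies here that share a window are not independent sites. The share of these peaks among the members also moves with the number of peaks per library, and the part of depth was not tested.

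All 6 annotated copies of Smarca5 had a peak, and Flag-MBD5 gave 5 and 4 members there against 14 and 17 of Flag-MBD6. Smarca5-ps itself (chr4:145464590-145464859, plus strand), annotated as transcribed, gave 16.9 and 9.91 with Flag-MBD5 and 16.1 and 19.6 with Flag-MBD6, on 21, 12, 25 and 40 reads. Its window was identical to the parent and stood in 7 annotated genes, and it is shown because 5 of the 6 copies had a site at this position.
Smarca5-ps and Smarca5, chr4:145464597-145464626, plus strand: ctcagaagactccaacctcacccttgaaga
In 18 of the 20 Smarca5 sites the window was identical to a coding transcript. The Smarca5 gene had 1, 1, 2 and 3 peaks of its own in the 4 libraries.

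**Figure D5:**
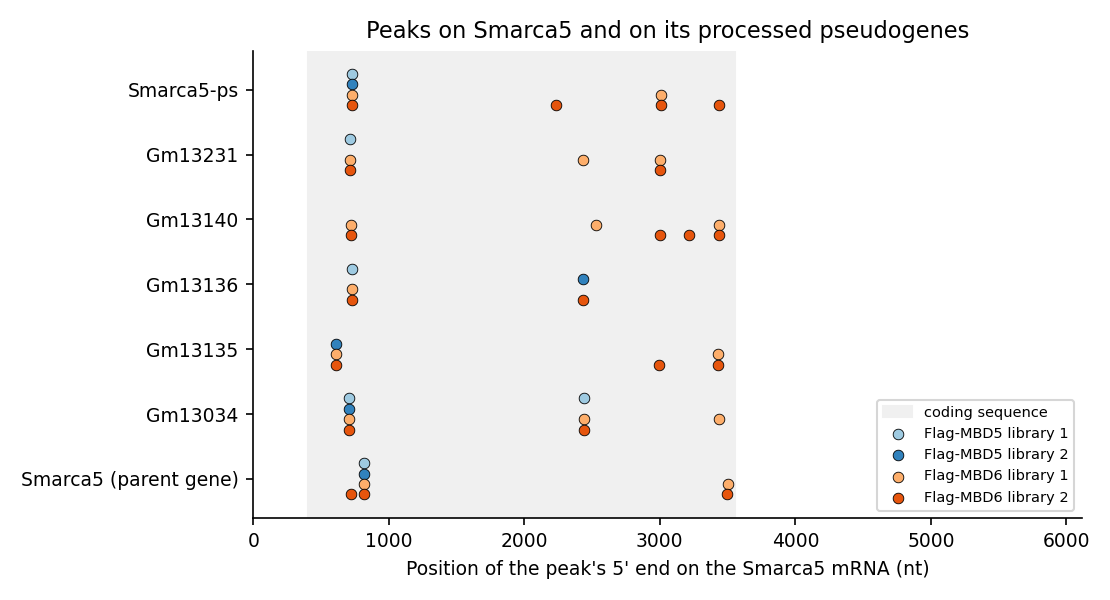
Position on the Smarca5 mRNA (nt) of the 5′ ends of peaks on the Smarca5 gene and of the sites on its 6 processed pseudogenes, each site placed by its peak with most reads. Points are libraries with a peak at the site, and the grey band is the coding sequence. All points lie in the coding sequence, and 5 of the 6 copies share a position near its start. The first site of Gm13135 lies at 613 nt, and the Smarca5 gene has a peak at 817 nt in every library.

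The copies of Hmgb1 in this stretch differed from the parent. Hmgb1 encodes an abundant DNA-bending chromatin protein, and the 5 windows on its copies here had 1 to 3 mismatches. The windows of 3 copies are shown, as they overlap the same stretch of the parent or lie near it.
Gm13170, chr4:146178625-146178654, plus strand: cctgatgcagTgaaaaTgggggtggtcaag
Gm13153, chr4:147041206-147041235, plus strand: gtcaaggctgaaaagagcaagCaaaagaag
Gm13155, chr4:147624344-147624373, minus strand: aaaaTgggggtggtcaaggctgaaaagagc
The capital T in Gm13155 and the last capital T in Gm13170 align with the same base of Hmgb1, at 149048867 on chromosome 5. The windows of Gm13170 and Gm13155 were each found in 6 annotated genes, and the parent position had a peak in 0 of 4 libraries. Over all its copies, Hmgb1 had a peak on 9 of 157 (5.73%), against 7.18% of all processed pseudogenes. These were 1 and 2 of the 452 and 427 Flag-MBD5 members and 8 and 7 of the 669 and 708 Flag-MBD6 members.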

How the data were processed

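RNA bound by Flag-MBD5 and Flag-MBD6 was measured by CLIP-seq in 2 libraries per protein. As the study's methods describe, the authors trimmed adapters, collapsed identical reads, kept those longer than 15 nt, removed ribosomal RNA, aligned the rest to mm10 without splicing, split them by strand and called peaks in each library with MACS2, with reads extended to 150 bp and q under 0.01. The submitters' processing notes name Bowtie 1.0.0 and SAMtools 1.16.1. The deposited score is the −log10 q scaled by 10. The authors' fold enrichment is a ratio of the summit to the background rate of the peak calling, with 1 added to both. Whether the inputs set that background is not stated in the study's methods. The −log10 p and −log10 q columns stand as deposited from MACS2. Another deposited column gives the summit position in bases.

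From these files, reads at each summit were solved as the whole number that gives both the fold enrichment and the p-value (100% of peaks), and library totals were estimated from the lowest background rate. The read recovery was tested on simulated data. Windows of 30 nt were matched to all GENCODE vM21 transcripts with bwa 0.7.19 (up to 3 mismatches, no gaps), and parents were found with blastn 2.17.0, with a gene that has a proper symbol preferred within 95% of the best bit score. A window was called over a junction only if every equally good coding match crossed one. Families are symbol patterns of the parents. Sites are the merged overlapping members of the 4 libraries, and a site can hold more than 1 peak of a library. Intervals are 95% Wilson intervals and, like the summit reads, cover counting error only. With 2 libraries against 2, an exact permutation test cannot pass 0.05, and no test was run. Nothing in the labels says that the libraries of a protein came from separate cultures.

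Named were the 10 sites whose rank by fold enrichment, averaged over the 4 libraries, was best, the 5 best reproducible regions per protein, the 2 best pseudogenes of each family with 3 or more reproducible ones, the 5 regions of each protein with most reads and no peak of the other, and transcribed pseudogenes with a site in all 4 libraries. Members, families and rules were chosen with earlier results of these data known. No genome sequence was used here, so windows outside annotated transcripts were not searched. The sequences of a few sites are not reported here.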

Additional observations from a re-analysis of the deposited data

How the results depend on the processing

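Pooled over the libraries of a protein, 12 values were recomputed under 70 alternatives, and 35 stayed within the interval of the main value (counts within 1.5 times). The share of peaks on processed pseudogenes (8.18% for Flag-MBD5 and 7.32% for Flag-MBD6) was 6.89% for Flag-MBD6 by the midpoint of the peak and 6.92% by its summit, and on the opposite strand it was 0.0279% and 0.0319%. Counting regions of either library gave 553 for Flag-MBD5 and 827 for Flag-MBD6 in place of 321 and 529. The overlap with the other protein, 93.5% for Flag-MBD5 and 56.0% for Flag-MBD6, became 84.4% and 51.6% with a reciprocal overlap of 50%, 97.8% and 76.9% against peaks of either library, and 76.2% and 78.5% with equal numbers of peaks. Leaving out 1 library at a time gave 82.0 to 96.3% for Flag-MBD5 and 44.2 to 69.0% for Flag-MBD6, where a single library stands in for a region found in both. Identical windows, 80.8% and 77.2%, made up 86.2% and 85% at 20 nt, 64.5% and 58.6% at 50 nt, and 99.3% and 98.6% with up to 3 mismatches. Windows over a junction, 32.3% and 33.7%, made up 19.6% and 22.0% at 20 nt, 47.4% and 48.1% at 50 nt, and 24.7% and 26.5% of identical windows. A peak at the parent position, 45.0% and 52.5%, became 81.5% and 86.6% for a peak anywhere in the parent's exons. It became 20.7% and 24.6% when the parent peak had to start within 30 nt, an alternative chosen after seeing the data. Filters on q and fold enrichment moved no share or count past these limits. No paired analysis was possible because the result comes from no test. The peak lists hold no reads below the threshold and no separate input values, so absence of a peak is not absence of RNA.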

Other observations

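The windows of 856 of the 888 sites matched a coding transcript. Of the other 32, 22 lay too close to the end of the pseudogene for a window, and 6 had a peak in all 4 libraries. Among these were the sites named above on Gm7964, a copy of Hnrnpk, and on Rps4l. The Gm7964 site was too close to the end for a window. The Rps4l site had a window, without a coding match within 3 mismatches. Windows found in more than 10 annotated genes, the upstream limit on places per read, were present for 7, 9, 10 and 11 members of the 4 libraries, with up to 57 genes for 1 window.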
